A study of Mus musculus with 12 samples.

Results

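The 49 genes described here encode enzymes and subunits that move nucleosomes, add or remove acetyl groups on histones, or bind marked histones. They were chosen by symbol, as a list of CHD remodelers (9), SWI/SNF subunits (12), the ISWI, ATRX and HIRA group (5), INO80 subunits (2), histone acetyltransferases (8), histone deacetylases (8), and chromodomain or bromodomain readers (5), and all 49 were found among the 19312 genes of the table. RNA was sequenced from 12 male C57BL/6N mice at postnatal day 25, 3 in each of 4 groups. WT-Veh mice were wild-type for Shank2 and received 0.1% saccharin as the vehicle, and WT-Mem mice were wild-type and received 20 mg/kg memantine. KO-Veh and KO-Mem mice lacked exons 6 and 7 on both copies of Shank2, which encodes a scaffold protein of the postsynaptic density, and received vehicle or memantine, respectively. Both agents were given by mouth 2 times a day from day 7 to day 21, so every mouse had the dosing and saccharin, and was sampled 4 days after the last doses. The deletion is constitutive, and each brain was sequenced on its own without pooling. Wild-type and mutant pups shared cages, but no label ties a mouse to a litter or gives a sequencing date, so p-values measure only the spread between these mice.

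Chromatin remodelers of the CHD, SWI/SNF, ISWI, and INO80 families use ATP to slide, evict, or exchange nucleosomes, and each works within a complex whose other subunits set where it acts. Acetyltransferases loosen the contact of histone tails with DNA and create docking sites for bromodomain proteins, deacetylases reverse this, and Polycomb chromodomain proteins bind methylated histone H3 at silenced genes. In the brain these proteins take part in neuronal differentiation and in activity-dependent transcription, and mutations in several of them, including CHD8, CHD2, ARID1B, ATRX, and EP300, cause neurodevelopmental disorders in humans. Memantine is an open-channel blocker of NMDA-type glutamate receptors.

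Shank2 itself fitted the labels. It had normalized counts of 7156 to 8548 in the 6 WT mice and of 2706 to 3178 in the 6 KO mice, a difference of -1.45 on the log2 scale between genotypes (SE 0.06, adjusted p = 6.01e-09 from limma). Normalized counts are estimated read counts that the authors divided by DESeq2 size factors, and they summed to between 30373849 and 31199251 per mouse. The labels name whole brain, whereas the methods of the study describe forebrain without cerebellum and the brain stem beneath it. Neurod6 and Emx1, transcription factors of cortical excitatory neurons, were present in every mouse, at 1100 to 1612 and 318.2 to 417.1 normalized counts. KO-Veh replicate 3 stood apart in cerebellar markers, with 253.9 normalized counts of Gabra6, 744.8 of Cbln3, and 379.7 of Pcp2, while the other 11 mice had at most 12.88, 64.99, and 21.54. The summed cerebellar markers were 4749 in that mouse and from 2003 to 2357 in the rest. WT-Veh replicate 3 lay farthest from the other mice on the first principal component. Calls among the 49 genes that change without either mouse are given with and without it. In bulk tissue, fewer cells of a type and less RNA per cell cannot be told apart.

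All 49 genes were well above the limit of detection. Their values ran from 549.1 normalized counts (Chd1 in WT-Mem replicate 3) to 27180 (Chd3 in KO-Mem replicate 1), where a single read was worth roughly 0.871 to 1.12 normalized counts, and all 49 passed the filter of a mean of at least 10. Per kilobase of exon, the highest level was that of Chd3, an ATPase of the NuRD corepressor, with a mean of 2937 normalized counts per kilobase and a range over the 12 mice of 2706 to 3219. Cbx6, a Polycomb chromodomain protein, followed with 1956 per kilobase, Smarcc2, the SWI/SNF scaffold subunit that prevails in neurons, with 1810, and Hdac11 with 1549. The range of Chd3 did not overlap that of Cbx6 (1892 to 2054 per kilobase), while the ranges of Cbx6 and Smarcc2 (1650 to 2017) did. Chd5, the neuronal member of the NuRD ATPases, had 1199 normalized counts per kilobase, against 885 for Chd4. The lowest levels per kilobase were those of Chd7 (52.3), Chd1 (75.98), and Hdac9 (89.7). Within pairs of related enzymes, Smarca4 was above Smarca2 (935.8 and 568.7 per kilobase), Smarcc2 above Smarcc1 (1810 and 269.5), and Kat2a above Kat2b (648.1 and 148.6), each with ranges over mice that did not overlap. Ep300 and Crebbp had 234.2 and 216.9 per kilobase, with ranges of 190.2 to 283.9 and 183 to 276.6 that overlapped.

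The promoters of these genes were read as the 250 bases before each RefSeq transcription start (GRCm38.p6). RefSeq windows were given for 39 of the 49 genes, 52 windows in all. Their median was 67.2% G or C with 21 CpG dinucleotides, against 52.4% and 6 over all 32851 windows of the same length. The motif GGGCGG, the GC box bound by Sp1, was found on either strand in 69.2% of the 52 windows and in 32.7% of all windows. All windows are those of 27025 genes, not limited to genes expressed in these mice. A background of expressed genes was not tested. CCAAT was found in 13 of the 52 windows against 33.8% of all, TATAAA in 1.92% against 12.4%, CCGGAAG in 7.69% against 6.91%, CACGTG in 7.69% against 6.02%, and TGACGTCA in 0% against 1.55%. Of the 10 genes that passed the adjusted threshold in a pairwise or pooled fit or with all 12 mice in one fit, 7 had a window and 2 had a window free of annotated exons. These are shown because they could be printed whole, and both are richer in G and C (78.8% and 79.2%) than the median of the 52 windows. The Kat7 window went the other way, with 50.8% G or C, 8 CpG dinucleotides, no GGGCGG match, and 2 CCAAT matches. The sequences run in the 5′ to 3′ direction of the gene. Capitals mark matches to the 6 motifs on either strand. The Kat6b window (chr14:21499520-21499769, plus strand) held 8 matches to GGGCGG, some overlapping, and the Bptf window (chr11:107132148-107132397, minus strand) held 2 and 1 CACGTG. This Kat6b window lies inside the annotated gene (chr14:21481434-21672478), downstream of its first annotated start. A further RefSeq window of Kat6b (chr14:21499535-21499784) overlaps 15 bases of Kat6b exon and is not shown.
Kat6b: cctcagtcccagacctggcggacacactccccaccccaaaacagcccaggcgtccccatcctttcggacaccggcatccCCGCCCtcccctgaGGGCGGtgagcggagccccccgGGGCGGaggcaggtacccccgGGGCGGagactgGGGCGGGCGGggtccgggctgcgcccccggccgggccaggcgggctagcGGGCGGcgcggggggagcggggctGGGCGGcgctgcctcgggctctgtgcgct
Bptf: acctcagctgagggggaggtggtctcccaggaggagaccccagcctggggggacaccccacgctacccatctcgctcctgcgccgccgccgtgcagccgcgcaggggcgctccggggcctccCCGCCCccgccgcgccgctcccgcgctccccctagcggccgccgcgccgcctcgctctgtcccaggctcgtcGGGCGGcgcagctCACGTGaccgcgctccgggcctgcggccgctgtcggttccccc
The Hira window (chr16:18876500-18876749) had 3 GGGCGG matches and 1 CCGGAAG match, but lies wholly within exons of the neighbouring gene Mrpl40. That of Ep300 (chr15:81585964-81586213) had 1 GGGCGG match and lies within annotated exons of Ep300 and Gm23880.

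The first question was how Shank2 deletion altered these genes irrespective of treatment, for which the 6 KO mice were compared with the 6 WT mice (the pooled genotype comparison). The CHD remodelers, the ISWI, ATRX and HIRA group, the acetyltransferases, and the readers had positive medians in KO against WT mice (0.12 to 0.16 on the log2 scale), and the deacetylases had a negative one (-0.06). Hira, Kat6b, Ep300, and Actr8 rose past the adjusted threshold, by 1.19 to 1.29-fold, and no member fell past it. These are 4 of 49 genes, where 4.79% of all 17655 genes tested were called higher and 10.5% were called in either direction. By sign alone, 35 of the 49 (71.4%) were higher in KO mice, against 50.9% of all genes, and the median difference of the members was 0.10 on the log2 scale, against 0.00 for all genes. At an unadjusted p under 0.05, 21 members were higher and 3 lower, where 14.3% and 15.1% of all genes were. These members were chosen with results of these data known, so the counts describe them and test nothing about the list.

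**Figure D1:**
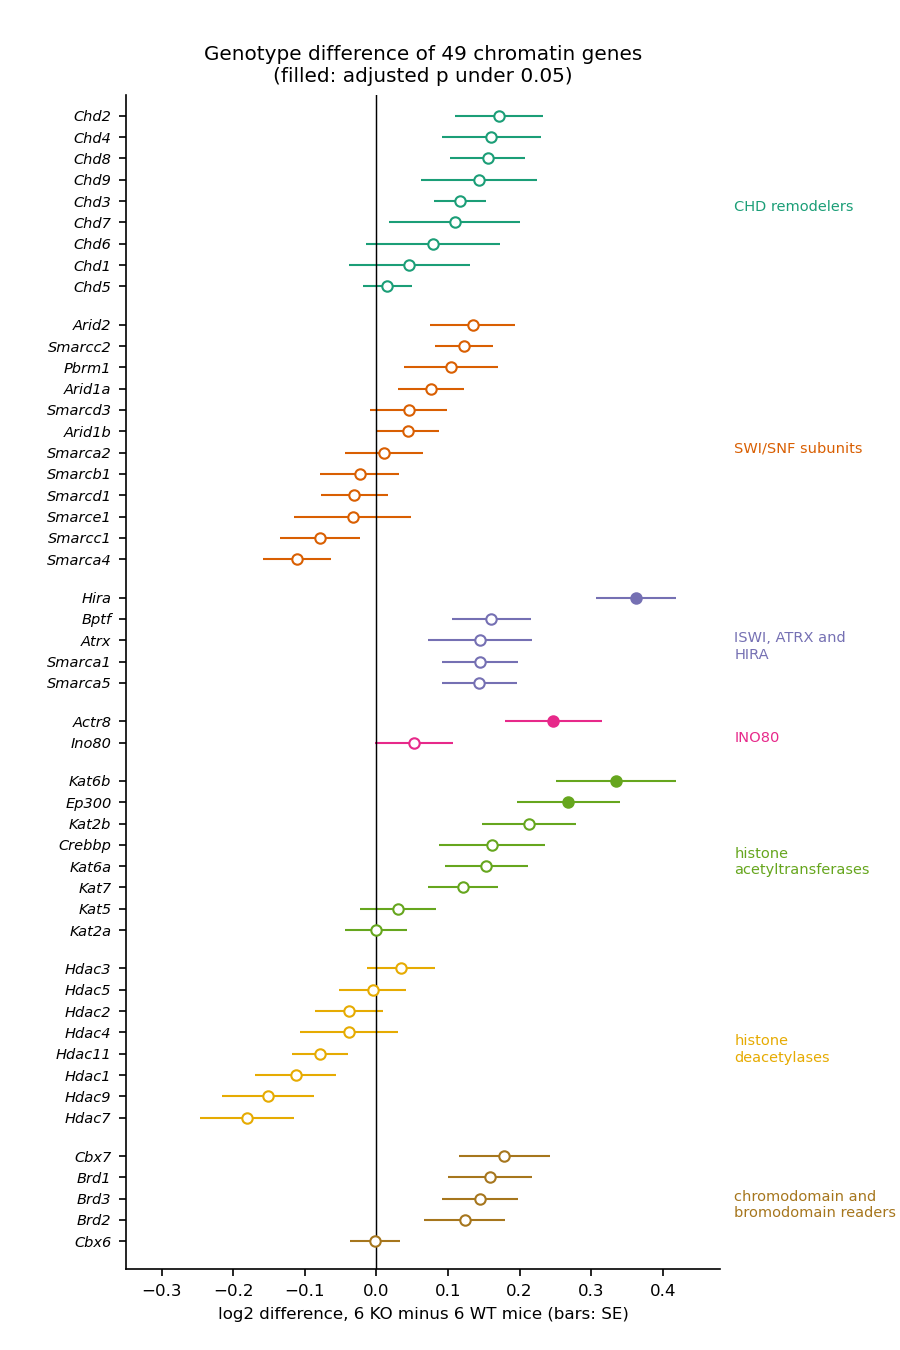
Log2 difference of the 49 genes between the 6 KO and the 6 WT mice (x axis; points, estimate; bars, SE of the limma fit), by role. Filled points are Hira, Kat6b, Ep300, and Actr8, the members with an adjusted p under 0.05, and 7 of 8 deacetylases lie left of 0.

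The called genes lie apart on GRCm38 (GENCODE M21): Hira at chr16:18877037-18970309, Kat6b at chr14:21481434-21672478, Actr8 at chr14:29978337-30006354, and Ep300 at chr15:81585351-81652077. Hira encodes a histone chaperone that deposits the replacement form of histone H3 outside of DNA replication. Its normalized counts were 1842, 2107, and 1841 in the WT-Veh, 1855, 1992, and 1964 in the WT-Mem, 2328, 2298, and 2650 in the KO-Veh, and 2774, 2448, and 2435 in the KO-Mem mice. Every KO mouse was above every WT mouse, and it was the sole member without overlap between the 6 and 6 mice, where 1.86% of all genes were higher and 2.20% lower without overlap. The difference was 0.36 on the log2 scale (SE 0.06, adjusted p = 0.00654), and ranged from 0.33 to 0.40 over the fits that left out 1 mouse. Hira was called in the pooled genotype comparison in each of the 12 fits that left out a mouse and in each of the 9 other alternatives.

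The other members of this group are Smarca1 and Smarca5, the ISWI ATPases, Bptf, the large subunit of the NURF complex, and Atrx, a remodeler that places the same histone H3 form at repeats with Daxx. Their log2 differences were 0.14 to 0.16, and all 4 missed the threshold (adjusted p from 0.0745 to 0.2). Bptf had 4679, 4170, and 3670 normalized counts in the WT-Veh, 4689, 4520, and 4218 in the WT-Mem, 4855, 4435, and 4630 in the KO-Veh, and 4872, 5059, and 5077 in the KO-Mem mice. KO-Mem mice were above all 9 others in Bptf, and KO-Veh mice overlapped both WT groups. In Atrx, KO-Mem mice lay at 6012 to 6116 normalized counts, above all other mice (4105 to 5849).

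Kat6b, the MORF acetyltransferase of histone H3, had 2106, 1882, and 1917 normalized counts in the WT-Veh, 2124, 2173, and 1757 in the WT-Mem, 2304, 2085, and 2583 in the KO-Veh, and 3201, 2754, and 2271 in the KO-Mem mice. The genotypes overlapped through KO-Veh replicate 2 alone, which was below 3 WT mice. The difference was 0.34 (SE 0.08, adjusted p = 0.026). Ep300, the p300 coactivator that acetylates histones at enhancers, had 3325, 2944, and 2715 in the WT-Veh, 3439, 2951, and 2824 in the WT-Mem, 3619, 3374, and 3916 in the KO-Veh, and 4052, 3765, and 3185 in the KO-Mem mice. KO-Mem replicate 3 and KO-Veh replicate 2 lay below the highest WT mouse, and the difference was 0.27 (SE 0.07, adjusted p = 0.0336).

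Of the other acetyltransferases, Kat2b (PCAF, a subunit of the SAGA-like coactivators) came nearest to the threshold with a log2 difference of 0.21 (SE 0.07, adjusted p = 0.0518). Its normalized counts were 664 to 753 in the WT-Veh, 613 to 694 in the WT-Mem, 672 to 836 in the KO-Veh, and 773 to 809 in the KO-Mem mice, so that KO-Mem mice were above all WT mice. Crebbp, the CBP partner of p300, had a difference of 0.16 (SE 0.07, adjusted p = 0.164), Kat6a (MOZ) 0.15, and Kat7 (HBO1) 0.12. Kat7 had 2085, 2267, and 2190 normalized counts in the WT-Veh, 2396, 2457, and 2302 in the WT-Mem, 2409, 2415, and 2399 in the KO-Veh, and 2833, 2487, and 2357 in the KO-Mem mice. The WT-Veh mice were the 3 lowest in Kat7, and the other 3 groups overlapped. Kat5 (TIP60) was at 0.03 and Kat2a (GCN5) at -0.00. Over the 8 acetyltransferases, 7 were higher in KO mice with a median of 0.16, of which 2 passed the adjusted threshold.

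INO80 evicts and spaces nucleosomes at starts of transcription and at replication forks, and Actr8 is one of its actin-related subunits. Actr8 had 1384, 1397, and 1353 normalized counts in the WT-Veh, 1326, 1608, and 1433 in the WT-Mem, 1469, 1393, and 1684 in the KO-Veh, and 2061, 1900, and 1658 in the KO-Mem mice. KO-Mem mice were above all WT mice, whereas KO-Veh mice overlapped both WT groups. The pooled genotype difference was 0.25 (SE 0.07, adjusted p = 0.0345). The ATPase Ino80 itself differed by 0.05 (SE 0.05, adjusted p = 0.556), with 893 to 1071 normalized counts over all 12 mice.

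All 9 CHD remodelers had positive genotype differences, from 0.01 (Chd5) to 0.17 (Chd2), with a median of 0.12 and none past the adjusted threshold. Chd3 was nearest, at 0.12 (SE 0.04, adjusted p = 0.0557). It had 23220, 22840, and 23110 normalized counts in the WT-Veh, 24110, 25400, and 24120 in the WT-Mem, 26560, 24500, and 25190 in the KO-Veh, and 27180, 25700, and 25670 in the KO-Mem mice. WT-Veh mice were the 3 lowest and KO-Mem mice were above all WT mice, while WT-Mem and KO-Veh mice overlapped. Chd8, a remodeler mutated in autism, differed by 0.16 (SE 0.05, adjusted p = 0.0683), with 3159 to 3911 normalized counts in WT and 3664 to 4188 in KO mice. Chd4, the main NuRD ATPase, differed by 0.16 (adjusted p = 0.14). Chd7, whose human gene is mutated in CHARGE syndrome, had 979.1 normalized counts in KO-Veh replicate 3, the mouse with high cerebellar markers, and 623.4 to 756.3 in the other 11 mice. Its genotype difference was 0.11 (SE 0.09) with all mice and at its lowest 0.01 when a mouse was left out. The part of cerebellar tissue in the Chd7 value was not tested.

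The 12 SWI/SNF subunits did not move one way. By sign, 7 were higher and 5 lower in KO mice, with a median of 0.03, and none passed the adjusted threshold. The largest positive differences were those of Arid2, the DNA-binding subunit of the PBAF form (0.13, adjusted p = 0.149), and Smarcc2 (0.12, SE 0.04, adjusted p = 0.0653). The ATPase Smarca4 (BRG1) had the most negative one, at -0.11 (SE 0.05, adjusted p = 0.135), with 5745 to 6682 normalized counts in WT and 5208 to 6083 in KO mice. Its alternative ATPase Smarca2 (BRM) differed by 0.01. Pbrm1 and Arid1a had differences of 0.10 and 0.08, Smarcc1 of -0.08, and Smarcb1, Smarcd1, Smarcd3, Smarce1, and Arid1b of -0.03 to 0.05.

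Among the readers, Cbx7 (0.18), Brd1 (0.16), Brd3 (0.14), and Brd2 (0.12) were higher in KO mice with adjusted p-values from 0.083 to 0.163, and Cbx6 was at -0.00. Cbx7 is a Polycomb chromodomain protein, Brd2 and Brd3 are BET proteins that bind acetylated histones, and Brd1 is a scaffold of acetyltransferase complexes. The deacetylases went the other way, with 7 of 8 lower in KO mice, a median of -0.06 and none past the adjusted threshold. Hdac7, a class IIa deacetylase, had the largest difference, -0.18 (SE 0.07, adjusted p = 0.0866). It had 1312, 1309, and 1684 normalized counts in the WT-Veh, 1294, 1312, and 1472 in the WT-Mem, 1209, 1107, and 1173 in the KO-Veh, and 1276, 1295, and 1308 in the KO-Mem mice. The 3 KO-Veh mice were the lowest of all 12. Hdac9, of the same class, differed by -0.15 (adjusted p = 0.134), Hdac1 by -0.11, Hdac11 by -0.08, and Hdac2, Hdac4, Hdac5, and Hdac3 by -0.04 to 0.03.

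Single mice decided which members passed in the pooled genotype comparison. Without KO-Veh replicate 3, the mouse with cerebellar markers, Hira alone was called, among 528 genes. Hira was also the sole call without KO-Mem replicate 1, KO-Mem replicate 2, KO-Veh replicate 1, WT-Mem replicate 3, or WT-Veh replicate 2. Without KO-Veh replicate 2, Kat2b joined the 4, and without WT-Mem replicate 1, Actr8 left them. Chd8 took the place of Ep300 without WT-Mem replicate 2, and Bptf that of Actr8 without WT-Veh replicate 1. Without WT-Veh replicate 3, the calls were Cbx7, Hira, Kat2b, and Kat6b, higher, and Smarca4, lower. Without KO-Mem replicate 3 there were 13, all higher, among 3263 genes: Actr8, Brd1, Brd3, Cbx7, Chd2, Chd3, Chd4, Chd9, Ep300, Hira, Kat6b, Kat7, and Smarcc2. The share of all genes called ran from 2.99% (without KO-Veh replicate 3) to 18.5% (without KO-Mem replicate 3). The sizes moved less than the calls: over the 12 fits, Kat6b ran from 0.28 to 0.40, Ep300 from 0.23 to 0.32, Actr8 from 0.21 to 0.29, and the median of the 49 members from 0.07 to 0.12.

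**Figure D2:**
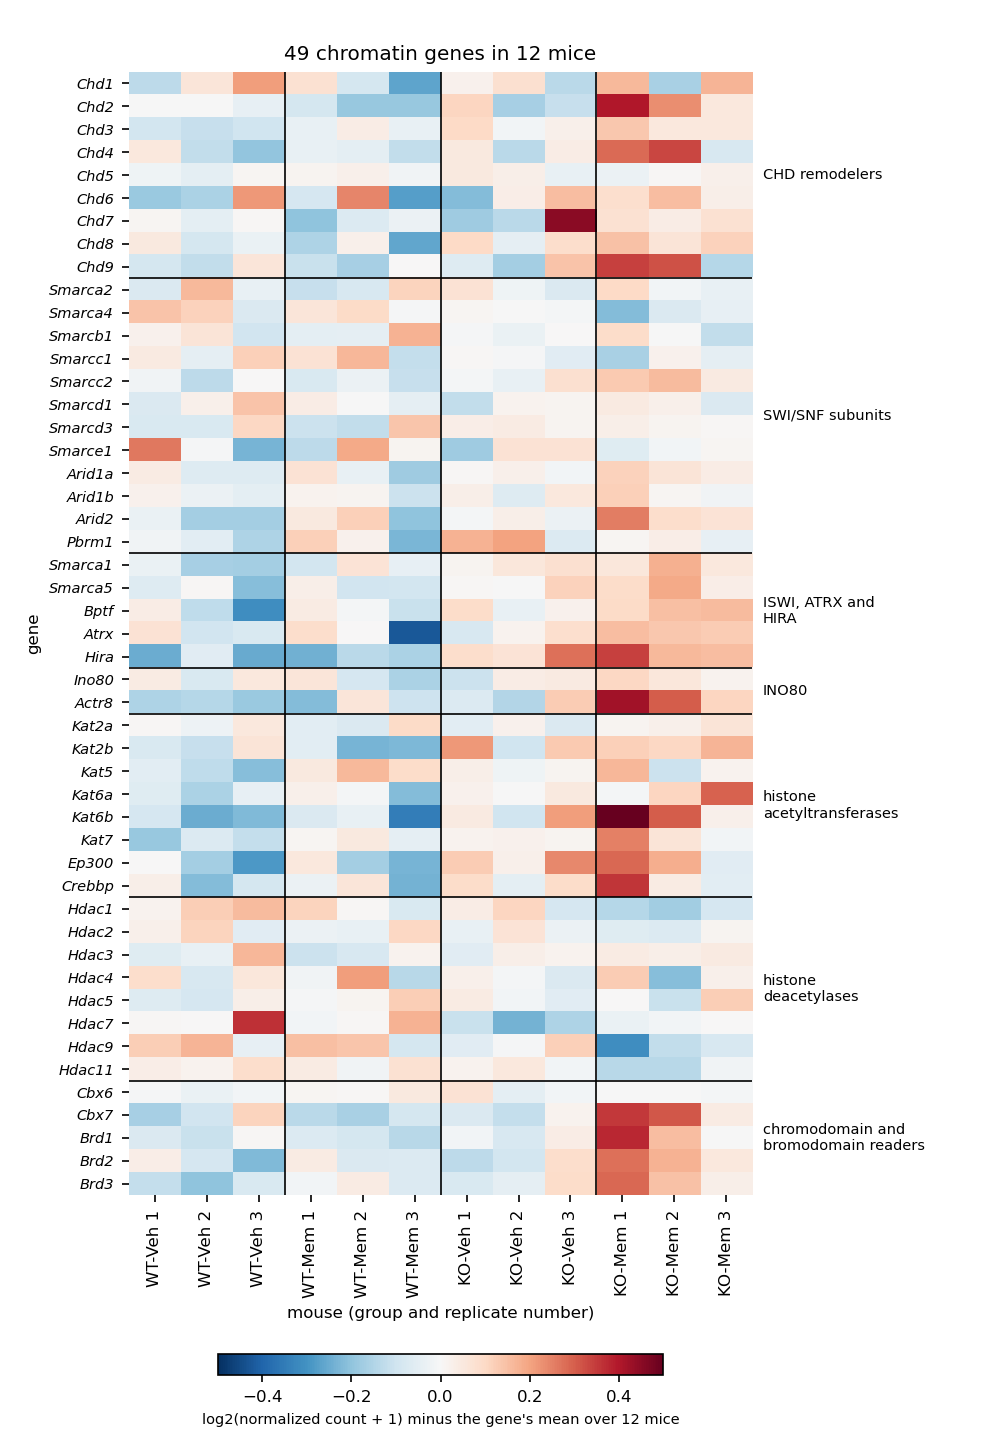
Deviation of log2(normalized count + 1) from the mean of each gene over 12 mice (colour scale, -0.5 to 0.5) for the 49 genes (rows, by role) in each mouse (columns, by group). The median over the 49 genes is highest in KO-Mem replicate 1 (0.11), followed by KO-Mem replicate 2 (0.05) and KO-Mem replicate 3 (0.03).

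Other cell and RNA markers also differed between genotypes. The 7 oligodendrocyte markers were all lower in KO mice and 6 of them were called, with summed normalized counts of 341000 to 418700 in the WT-Veh, 305000 to 357500 in the WT-Mem, 297000 to 316400 in the KO-Veh, and 245500 to 290200 in the KO-Mem mice. All 5 blood markers were lower and 4 were called, with sums of 19450 to 26320, 13300 to 14810, 7567 to 18760, and 5626 to 12530 in the same order of groups. The endothelial markers were lower in 5 of 6 genes with 4 called, and the astrocyte markers in 6 of 7 with 3 called. All 7 microglial markers were lower with 1 called, and all 7 cerebellar markers were higher with none called, the latter with the high values of KO-Veh replicate 3 included. The 5 nuclear-retained RNAs were all higher, 1 of them called, namely Leng8 at 0.30 (SE 0.07, adjusted p = 0.0153), which the paper lists among the genes most raised in memantine-treated KO against WT mice. Their sums were 274100 to 337500 in the WT-Veh, 258300 to 285200 in the WT-Mem, 287100 to 319100 in the KO-Veh, and 310200 to 355700 in the KO-Mem mice. Neuronal markers moved both ways. Of the inhibitory neuron markers, Gad2 (0.19, adjusted p = 0.034) and Vip (0.32, adjusted p = 0.0284) were called higher and Pvalb (-0.35, adjusted p = 0.0405) lower. The pan-neuronal Nefl (-0.22, adjusted p = 0.0238) was called lower, as were Gpr17 of oligodendrocyte precursors (-0.43) and Rgs5 of pericytes (-0.55). In these lists, Gabra6 was listed at 0 in all 3 WT-Mem mice, and no other marker was at 0 in a whole group. The part of these shifts in the differences of the chromatin genes was not tested.

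The genotypes were next compared under each treatment. In Veh-K/W transcripts (KO-Veh against WT-Veh), which give the baseline effect of the deletion, no member was called, where 5 of 17671 genes (0.0283%) were. At an unadjusted p under 0.05, 6 members were higher and 1 lower, against 6.73% and 7.68% of all genes, and 31 of 49 (63.3%) were higher by sign, against 50.4%. Among the longest of 4 equal bins of genes by exon length, which held 36 of the 49, 60.3% of all genes were higher. The groups did not overlap for 8 members higher and 1 lower in the KO-Veh, where the background was 9.73% and 10.7%. The median of the members was 0.03, and it was 0.01 without KO-Veh replicate 3, 0.02 without WT-Veh replicate 2, and 0.06 without WT-Veh replicate 3. Hira had the smallest p, with a log2 difference of 0.33 (SE 0.08, adjusted p = 0.163), followed by Ep300 at 0.28 (SE 0.09, adjusted p = 0.213), Hdac7 at -0.29 (SE 0.10, adjusted p = 0.251), Kat6b at 0.24 (SE 0.09, adjusted p = 0.274), and Chd3 at 0.14 (SE 0.06, adjusted p = 0.319). In Hdac7, WT-Veh replicate 3 was at 1684 normalized counts, against 1312 and 1309 in the other WT-Veh mice. KO-Veh and WT-Veh mice did not overlap in Hira, Ep300, Hdac7, or Chd3, and overlapped in Kat6b.

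In Mem-K/W transcripts (KO-Mem against WT-Mem), which show the effect of the deletion in treated mice, again no member was called, where 12 of 17646 genes (0.0680%) were. The unadjusted counts were larger, with 14 members higher and 2 lower, against 10.1% and 10.8% of all genes, and 35 of 49 were higher by sign, against 50.3%. The groups did not overlap for 16 members higher and 3 lower, against 12.7% and 13.5%, and the median was 0.12. Hira (0.40, SE 0.08, adjusted p = 0.0884), Chd2 (0.38, SE 0.09, adjusted p = 0.0919), Cbx7 (0.36, SE 0.09, adjusted p = 0.0963), Actr8 (0.36, SE 0.10, adjusted p = 0.112), and Kat6b (0.43, SE 0.13, adjusted p = 0.117) had the smallest p-values, and the groups did not overlap in any of the 5. With the spread estimated from all 12 mice, Hira, Chd2, and Cbx7 were called (adjusted p = 0.0294, 0.0369, and 0.0445), 3 of 49, where 1.59% of all genes were called higher. The nuclear-retained RNAs were 5 of 5 higher in KO-Mem than in WT-Mem mice (median 0.33, 1 called with all 12 mice in one fit), with Leng8 at 0.48 (SE 0.07, adjusted p = 0.0586 in its own 6 mice). The paper lists Leng8 among the genes most raised in this comparison, so its value here is no separate evidence. The oligodendrocyte markers were 7 of 7 lower (median -0.35, 5 called with all 12 mice in one fit), and the part of either list in the calls above was not tested. Without KO-Mem replicate 3, whose values lay nearest to those of WT-Mem mice in Chd2 and Cbx7, 11 members were called, among 1911 genes (10.8%). Without any of the other 5 mice none was.

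**Figure D3:**
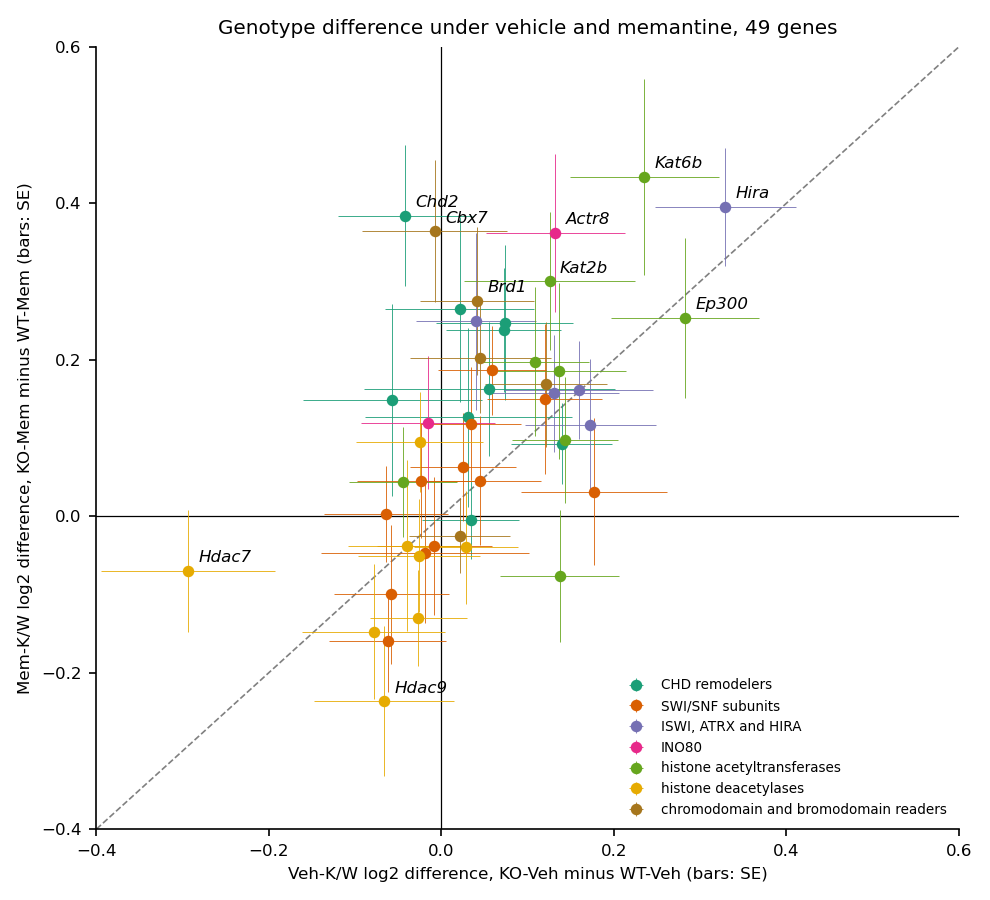
Log2 difference between KO and WT mice under memantine (Mem-K/W, y axis) against that under vehicle (Veh-K/W, x axis) for the 49 genes, coloured by role, with SE bars and the line of equality (dashed). Of the 49, 32 lie above the line, and Chd2 and Cbx7 lie near 0 on the x axis and at 0.38 and 0.36 on the y axis.

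These 2 comparisons share no mouse. Of the 49 members, 27 (55.1%) were higher in KO mice in both, against 35.3% of the 17396 genes tested in both, and 10 were lower in both. The sign was the same for 75.5% of members and for 70.0% of all genes. The signed difference was higher under memantine for 32 of 49 members and for 8490 of the 17396 genes, a count that includes negative differences nearer to 0, such as that of Hdac7. Hira differed by 0.33 under vehicle and 0.40 under memantine, and Ep300 by 0.28 and 0.25, whereas Chd2 and Cbx7 differed by -0.04 and -0.01 under vehicle.

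The change of the genotype difference with treatment was tested as an interaction on all 12 mice. No member and no gene was called (0%), and at an unadjusted p under 0.05 there were 2 members higher and none lower, against 2.41% and 2.34% of all genes. The 2 were Chd2 (0.43, SE 0.12, unadjusted p = 0.00389) and Cbx7 (0.37, SE 0.13, unadjusted p = 0.011), both with an adjusted p = 0.947. The paper names Cbx7 in a chromatin gene set positively enriched in memantine-treated against vehicle-treated KO mice. The same KO mice enter the interaction, so the Cbx7 value is no separate evidence. Chd2, a remodeler found at active genes and mutated in epileptic encephalopathy, had 2553, 2550, and 2483 normalized counts in the WT-Veh, 2403, 2241, and 2243 in the WT-Mem, 2755, 2277, and 2362 in the KO-Veh, and 3377, 3001, and 2652 in the KO-Mem mice. KO-Mem mice were above all 6 WT mice, and WT-Mem mice were below all WT-Veh mice. Cbx7 had 1396, 1469, and 1694 in the WT-Veh, 1427, 1402, and 1475 in the WT-Mem, 1490, 1445, and 1588 in the KO-Veh, and 2005, 1944, and 1615 in the KO-Mem mice. KO-Mem mice were above all WT-Mem and KO-Veh mice, and KO-Mem replicate 3 was below WT-Veh replicate 3.

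**Figure D4:**
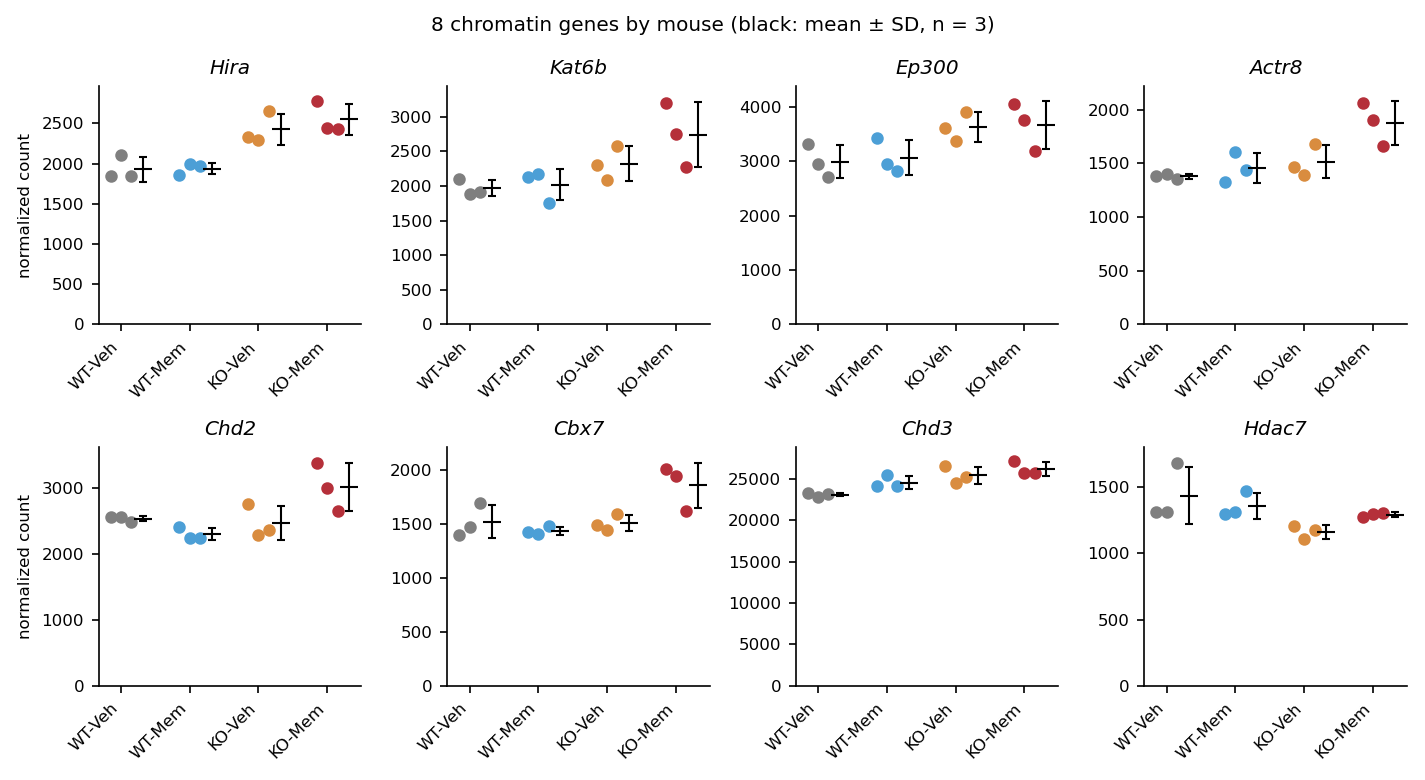
Normalized counts (y axis, from 0) of 8 of the genes in each mouse (points) by group (x axis), with the mean and SD of each group of 3 mice in black. Hira separates the 6 KO from the 6 WT mice, and in Actr8, Chd2, and Cbx7 the KO-Mem mice have the highest means (1873, 3010, and 1855 normalized counts).

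The effect of memantine was next compared within each genotype. In KO-M/V transcripts (KO-Mem against KO-Veh), no member and no gene was called (0%), and 6 members were higher and 1 lower at an unadjusted p under 0.05, against 4.34% and 4.54% of all genes. By sign 37 of 49 were higher, against 49.7%, with a median of 0.06, or 0.02 without KO-Mem replicate 1. The groups did not overlap for 6 members higher and 4 lower, against 7.10% and 6.82%. In the same 6 mice the oligodendrocyte (7 of 7), pericyte and meningeal (6 of 6), choroid plexus (4 of 4), blood (5 of 5), and cerebellar (7 of 7) markers were lower by sign under memantine, with medians of -0.26, -0.27, -0.41, -0.80, and -0.60. The astrocyte markers other than Slc1a3 (0.05) were lower too, with Aqp4 at -0.39 and S100b at -0.30. So were the microglial markers other than C1qa (0.17), with Csf1r at -0.28. In summed cerebellar markers the fall rested on KO-Veh replicate 3, with 4749 normalized counts. The other KO-Veh mice had 2143 and 2071, below the 2172 to 2357 of the KO-Mem mice. Of the 5 nuclear-retained RNAs, 3 were higher, each at an unadjusted p under 0.05. None of these markers passed the adjusted threshold, and their part in the differences of the chromatin genes was not tested. Cbx7 (0.29, SE 0.09), Actr8 (0.30, SE 0.10), Chd2 (0.29, SE 0.10), and Brd2 (0.21, SE 0.08) had the smallest p-values, each with an adjusted p = 0.554, followed by Atrx (0.13, adjusted p = 0.555). The paper names Cbx7 and Actr8 in a chromatin gene set positively enriched in this comparison of the same mice. Their place here is thus no separate evidence. Brd2 had 6116, 6275, and 7120 normalized counts in KO-Veh and 8109, 7548, and 6938 in the KO-Mem mice, and the groups overlapped through KO-Veh replicate 3. The 4 members lower without overlap were Smarca4, Hdac1, Hdac9, and Hdac11, with differences from -0.11 to -0.19.

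In WT-M/V transcripts (WT-Mem against WT-Veh), no member was called, where 2 of 17564 genes (0.0114%) were. A single member, Kat5, had an unadjusted p under 0.05, against 1.50% of all genes higher and 2.47% lower. Kat5, the TIP60 acetyltransferase, had 1453, 1378, and 1299 normalized counts in WT-Veh and 1560, 1686, and 1606 in WT-Mem mice, without overlap (0.23, SE 0.07, adjusted p = 0.978). In KO mice it was at 1484 to 1536 under vehicle and at 1399 to 1689 under memantine. The median was -0.00, or 0.03 without WT-Mem replicate 3, and 5 members were higher and 1 lower without overlap, against 4.15% and 5.19%. The KO-M/V and WT-M/V differences, which share no mouse, had the same sign for 55.1% of members and 55.0% of all genes. Averaged over genotypes, memantine gave no call among members or all genes (0%), with 5 members higher at an unadjusted p under 0.05 and none lower, against 3.63% and 5.05%. These were Actr8 (0.19), Brd3 (0.14), Kat5 (0.13), Brd2 (0.13), and Kat7 (0.11), with adjusted p-values from 0.472 to 0.574.

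KO-M/WT-V transcripts (KO-Mem against WT-Veh) set treated KO mice beside untreated WT mice. It was the one pairwise comparison with members called, 2 higher and none lower, where 1.32% of 17662 genes were called higher and 3.37% in either direction. These were Actr8 (0.44, SE 0.09, adjusted p = 0.0371) and Hira (0.40, SE 0.09, adjusted p = 0.0403), 1.35 and 1.32-fold higher in the KO-Mem mice. At an unadjusted p under 0.05, 19 members were higher and 3 lower, against 12.6% and 13.2%. The groups did not overlap for 18 higher and 4 lower, against 15.5% and 15.6%, and the median was 0.13. Kat6b (0.47, SE 0.11, adjusted p = 0.0542), Brd3 (0.29, SE 0.08, adjusted p = 0.0748), and Arid2 (0.26, SE 0.08, adjusted p = 0.0888) came next. Arid2 had 1786, 1624, and 1624 normalized counts in the WT-Veh and 2182, 1942, and 1913 in the KO-Mem mice. Brd3 had 1979, 1866, and 2039 normalized counts in WT-Veh and 2622, 2377, and 2193 in the KO-Mem mice. The groups did not overlap in either gene.

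With the spread taken from all 12 mice, 7 members were called higher in KO-M/WT-V transcripts, where 5.25% of all genes were: Actr8 (adjusted p = 0.014), Hira (0.00953), Kat6b (0.025), Brd3 (0.0278), Chd3 (0.0366), Bptf (0.0404), and Kat7 (0.0482). Within the 6 mice of this comparison, both calls were lost when WT-Veh replicate 3 or any other mouse than KO-Mem replicate 3 was left out. Without KO-Mem replicate 3, 11 members were called, where 14.1% of all genes were. In the same 6 mice the blood markers were 5 of 5 lower with 4 called, and the oligodendrocyte markers 7 of 7 lower with 6 called, and their part in these differences was not tested. In WT-M/KO-V transcripts (WT-Mem against KO-Veh) no member was called, where 4 of 17648 genes (0.0227%) were. There 1 member was higher and 4 lower at an unadjusted p under 0.05, against 4.71% and 4.23%: Hdac7 (0.22) was higher in the WT-Mem, and Hira (-0.32), Ep300 (-0.25), Kat2b (-0.25), and Chd8 (-0.18) were lower. Comparisons that share a group of mice are set side by side here and are not independent.

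The 49 genes are long. Their median exon length was 8404 bases, against 4050 for the genes tested, and 36 of 49 were in the longest of 4 equal bins by length. In that bin the median genotype difference of all genes was 0.04, with 60.3% of genes higher in KO mice, and in the shortest bin it was -0.03, with 44.0%. The members in the longest bin had a median of 0.11. In Veh-K/W transcripts, the members of the longest bin had a median of 0.034, against 0.038 for all its genes. In Mem-K/W transcripts these medians were 0.149 and 0.032. After a smooth trend on exon length and GC content was removed from each mouse, the median of the 49 fell from 0.10 to 0.08, and 7 members were called higher and 1 lower, against 4.88% and 6.94% of all genes. These were Actr8, Cbx7 (adjusted p = 0.0494), Chd3 (0.0314), Ep300, Hira, Kat6b, and Smarcc2 (0.0457), and, lower, Hdac9 (-0.21, adjusted p = 0.0324).

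**Figure D5:**
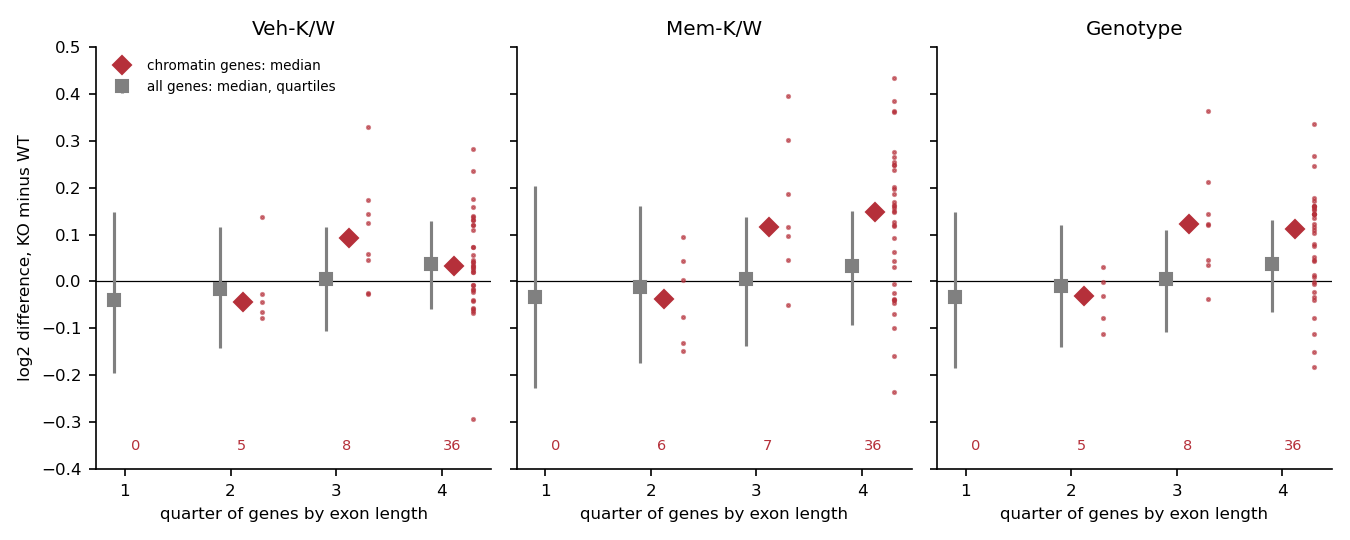
Log2 difference between KO and WT mice (y axis) by bin of exon length (x axis, 4 equal bins of genes, shortest to longest) in Veh-K/W, Mem-K/W, and the pooled genotype comparison. Grey squares and bars are the median and quartiles of all genes, red diamonds and dots the median and single values of the chromatin genes, whose number is given at the foot. In the longest bin the medians of all genes and of the chromatin genes are 0.04 and 0.11 pooled, and 0.038 and 0.034 in Veh-K/W.

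The other subunits of the same complexes, 116 genes in 8 lists, gave 9 calls higher and 2 lower in the pooled genotype comparison, against the same 10.5% of all genes in either direction. Their median was 0.05, and 74 of 116 were higher. Among acetyltransferase subunits 3 of 21 rose, namely Brpf3 (0.32, SE 0.06, adjusted p = 0.0121), a scaffold of the Kat7 complex, Jade1 (0.28, adjusted p = 0.0295), another of its scaffolds, and Epc2 (0.26, adjusted p = 0.013), a subunit of the Kat5 complex. Among 20 deacetylases and corepressors, the sirtuin Sirt6 (0.28, SE 0.06, adjusted p = 0.0125) and Ncor1, the corepressor that activates Hdac3 (0.17, adjusted p = 0.0456), rose. Among 18 readers, the Polycomb subunit Phc1 (0.19, adjusted p = 0.0338) and Brd8 (0.17, adjusted p = 0.0353) rose. Of 18 SWI/SNF subunits, Ss18l1, part of the neuronal form of the complex, rose (0.26, adjusted p = 0.0214), while Brd9 (-0.20, adjusted p = 0.0258), which marks the non-canonical form, and Dpf2 (-0.22, adjusted p = 0.0493) fell. Of 7 ISWI partners, Rsf1 rose (0.19, adjusted p = 0.0451). No NuRD subunit (10 genes, Mta1 nearest with 0.16 and adjusted p = 0.0654), INO80 or SRCAP subunit (16 genes, Ep400 nearest with 0.22 and adjusted p = 0.0767), or chaperone acting with Atrx or Hira (6 genes, Cabin1 nearest with 0.19 and adjusted p = 0.0924) was called. In KO-M/WT-V transcripts 1 of the 116 was called, Brpf3 (0.44, adjusted p = 0.0426), where 1.32% of all genes were called higher and 3.37% in either direction. None was called in Veh-K/W, Mem-K/W, or KO-M/V, where 0.0283%, 0.0680%, and 0% of all genes were. At an unadjusted p under 0.05, 9 were higher and 7 lower in Veh-K/W, against 6.73% and 7.68% of all genes. The counts were 23 and 2 in Mem-K/W, against 10.1% and 10.8%, and 11 and 1 in KO-M/V, against 4.34% and 4.54%.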

How the data were processed

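The authors estimated transcript abundance with Salmon (1.1.0 per the labels) on GRCm38 with GC bias correction, imported gene-level estimates with tximport and divided them by DESeq2 (1.26.0 per the labels) size factors. The deposited signal is this normalized read count, 1 column per mouse for 12 mice, neither log-transformed nor whole, so no count test was used. Groups came from the sample labels. Every column was mapped to a mouse and used.

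A gene entered a fit if its mean over the mice of that fit reached 10. Tests were run with limma 3.58.1 (R 4.3.3; lmFit, then eBayes with a trend) on log2(value + 1), two-sided, with Benjamini-Hochberg adjustment over all genes tested and a threshold of 0.05. Log2 differences are on the scale of log2(value + 1). Pairwise comparisons used their own 6 mice. The pooled genotype, memantine, and interaction terms used all 12. Scripts were tested on simulated data. Of 19312 genes, 19295 matched GENCODE M21, which gave symbols, positions, and exon lengths (union of exons). Promoter sequences are those of RefSeq (GRCm38.p6). The members, gene lists, and marker lists were chosen with earlier results of these data known. Values in every mouse are given for members called in their own fit or with all 12 mice in one fit. Such values are also given for members among the 5 smallest p-values of a comparison. Some of these members have values for only part of the mice, or ranges. The other subunits named are those called or with the smallest p of their list. Salmon estimates need not be whole reads, so depth is known only roughly: the median of the 24 to 52 lowest values above 0 of each mouse, taken as 1 read, put relative depth between 0.893 and 1.15.

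Alternatives were a pseudocount of 5, no filter or a mean of at least 50, quantile or equal-sum scaling, removal of a trend on length and GC content (splines with 5 degrees of freedom), eBayes without a trend, each mouse left out, the replicate number as a block, and all 12 mice in one fit.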

Additional observations from a re-analysis of the deposited data

Results flagged for a closer look

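Chd2 and Cbx7 are listed because the test of a change of their genotype difference with treatment had an unadjusted p under 0.05, which does not show such a change after adjustment. The interaction, Mem-K/W minus Veh-K/W, was 0.43 on the log2 scale for Chd2 (unadjusted p = 0.00389 from limma) and 0.37 for Cbx7 (unadjusted p = 0.011). Both failed the adjustment over 17655 genes (adjusted p = 0.947), and they are 2 of 49 members where 2.41% of all genes were higher and 2.34% lower at an unadjusted p under 0.05. Over the 12 fits that left out 1 mouse, the interaction ran from 0.34 to 0.51 for Chd2 and from 0.29 to 0.47 for Cbx7. The paper names Cbx7 in a chromatin gene set positively enriched in KO-M/V in these same mice, so its value is no separate evidence. Single mice were not tested as outliers within groups of 3.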

How the results depend on the processing

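No member called in its own fit changed sign under any alternative, and Hira was called in the pooled genotype comparison under all of them. The number of members called moved most. Percentages in brackets are the share of all genes called. In the pooled genotype comparison (4 called, 10.5%) it was 9 with equal sums (10.9%), 8 after the length and GC correction (11.8%), and 1 without a variance trend (3.79%). With a mouse left out the number ran from 1 to 13 (2.99% to 18.5%), with medians of 0.0671 to 0.117. In KO-M/WT-V (2 called) it was 7 with all 12 mice in one fit, 0 without a variance trend, and from 0 to 11 with a mouse left out, with medians of 0.0866 to 0.136. In Mem-K/W (0 called, 0.068%) the number was 3 with all 12 mice in one fit (3.6%) and from 0 to 11 with a mouse left out (0.0113% to 10.8%). After the length and GC correction the member median moved toward 0, from 0.131 to 0.0737 in KO-M/WT-V and from -0.0503 to -0.0132 in WT-M/KO-V. With a mouse left out it ran from 0.0132 to 0.0628 in Veh-K/W, from 0.0931 to 0.136 in Mem-K/W, from 0.0209 to 0.075 for the interaction, from 0.0146 to 0.0452 for memantine over both genotypes, from 0.016 to 0.0708 in KO-M/V, from -0.0196 to 0.0334 in WT-M/V, and from -0.055 to -0.0147 in WT-M/KO-V. The correlations of same-numbered mice lay between -0.175 and 0.0802 and showed no pairing by replicate number. A litter or day shared by same-numbered mice was not tested. With the replicate block, 5 members were called in KO-M/WT-V (5.66%) and 5 in the pooled genotype comparison (9.79%). With the block and the length and GC correction these were 4 (4.44%) and 5 (9.97%), where the medians were 0.0737 in KO-M/WT-V and -0.0132 in WT-M/KO-V. The replicate block gave no call in the other comparisons. The cause of these moves was not tested. With 3 mice per group, a missed threshold in a pairwise comparison does not show that a gene was unaltered, and depth is known only roughly.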
